A study of Mus musculus with 8 samples.

Results

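The mitosis genes are 43 named genes of the mouse that encode mitotic cyclins and their kinase, the polo and Aurora kinases, the spindle checkpoint, kinetochore proteins, spindle motors and cytokinesis factors. They were taken by symbol from 3 deposited gene tables. All 43 were listed in the table of AS and NT, 39 in that of RC4 and NT and 41 in that of RC8 and NT, and 38 were in all 3 tables, out of 10690 genes in at least 1 table and 9875 in all 3. Cdc25c, Aurkb, Ttk and Kif20b were not listed for RC4, and Ccnb2 and Kif20b were not listed for RC8. The tables leave out genes for other reasons than few reads, so that no limit was set for a gene that was not listed.

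The cells were NIH3T3, an established line of mouse fibroblasts, under 4 conditions. NT cells were not treated, AS cells were kept in 250 μM sodium arsenite for 1 h, and RC4 and RC8 cells had the same treatment followed by 4 h and 8 h in regular medium after washes. Sodium arsenite is a toxic agent that causes oxidative stress, halts translation and induces heat shock and antioxidant genes. RNA was read from its 3′ ends with QuantSeq FWD, which places each read near the poly(A) site (PAS) of a transcript, and each condition had 1 library of 22.4 M to 23.0 M reads on genes. No synchronisation of the cultures is given in the sources used here, and fewer cells in mitosis and less RNA per mitotic cell cannot be told apart in these bulk libraries. No condition was replicated, so no test was made. Each 95% interval of a single gene or PAS below covers counting error only, and the reads carried no molecular identifiers that would count molecules.

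The labels were compared with marker genes. All 14 fibroblast markers were listed in every table, and 10 of 12 markers of other cell types were listed in none. The exceptions were Acta2, at 174 to 254 RPM (reads per M reads on genes), and Tubb3, which rose from 2.79 RPM in NT to 11 in RC4 and 15.8 in RC8. The fibroblast markers themselves summed to 15236 RPM in NT, 15703 in AS, 12145 after 4 h and 9210 after 8 h of recovery. Their median change relative to the median gene, on the log2 scale, was −0.08 in AS. None was past 2-fold there, where 0.718% of all genes rose and 2.93% fell. It was −0.16 in RC4, with 3 of 14 at least 2-fold lower, compared with 6.38% of all genes. In RC8 it was −0.69, with 4 of 14 lower, compared with 3.59% of all genes. This RC8 median is below that of the mitosis genes given further on (−0.49). The part of these markers in the results was not tested. The heat shock gene Hspa1b was at 42.3, 218, 2369 and 90.4 RPM in NT, AS, RC4 and RC8. All 4 listed genes of a list of 6 arsenite-inducible genes rose at least 2-fold in AS and in RC4, compared with 0.718% and 6.38% of all genes.

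Most mitosis genes are transcribed late in the cell cycle, in G2 and M phase, and their mRNAs are low in cells that have left the cycle or are in G1 phase. Cdk1 with cyclin B starts mitosis, the checkpoint kinases hold anaphase until chromosomes are attached to the spindle, and the anaphase-promoting complex with Cdc20 then marks cyclin B for destruction. Promoters of this class are known for CCAAT boxes, which NF-Y binds, and for the cell cycle genes homology region with the letters TTTGAA, which MuvB complexes bind.

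Promoters of 300 bases, from 250 bases before to 50 bases after the gene start, were matched by symbol in the RefSeq promoter table (GRCm38.p6) for 37 of the 43 genes, as 40 promoters. Either strand was searched, and the motifs can overlap each other only at their ends. TTTGAA was found in 30 of 40 promoters (75%, Wilson interval 59.8% to 85.8%), compared with 17.9% of all 32851 promoters. CCAAT was found in 31 of 40 (77.5%, 62.5% to 87.7%), compared with 37.4%. Both were present in 26 of 40 (65.0%, 49.5% to 77.9%), compared with 6.95% of all promoters. Bub3, Ect2 and Prc1 entered with overlapping promoters that hold the same motifs, which these intervals treat as separate. Counted by gene, TTTGAA was found in 27 of 37 (73.0%), compared with 20.2% of all genes with a promoter. CCAAT was found in 28 (75.7%, compared with 41.1%) and both in 23 (62.2%, compared with 7.97%). These are letters in a window and not measured binding. The windows below are from genes with large changes after 4 h of recovery or of central roles in mitosis, with the motif in capitals, read 5′ to 3′ on the strand of the gene.
Plk1 (chr7:122159453-122159482, plus strand): cccagcgccgcgTTTGAAttcggggaggag
Cdk1 (chr10:69352910-69352939, minus strand): taccgcggcgagTTTGAAactgctggcact
Kif23 (chr9:61946780-61946809, minus strand): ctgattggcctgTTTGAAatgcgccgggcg
Bub1b (chr2:118598231-118598260, plus strand): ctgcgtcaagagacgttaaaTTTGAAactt
Prc1 (chr7:80294434-80294463, plus strand): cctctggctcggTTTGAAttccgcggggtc
Cdc20 (chr4:118437344-118437373, minus strand): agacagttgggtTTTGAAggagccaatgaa
The motif of Plk1 lay 30 bases after the gene start, that of Bub1b 40 bases and that of Kif23 2 bases after it. In the Cdk1 window it lay 15 bases before the start, and in the Cdc20 window 18 bases before it.

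Mitosis genes were lower as a group after 4 h of recovery, and most had returned to within 2-fold of NT after 8 h. Their median change, relative to the median gene, was 0.05 on the log2 scale in AS (−0.05 to 0.15, order-statistic interval over genes). It was −1.21 in RC4 (−1.69 to −0.99), and −0.49 was its value in RC8 (−0.67 to −0.20). Intervals of a median, here and below, are over genes of a single pair of libraries. These genes are not independent replicates, and the intervals do not cover variation between cultures. At the end of arsenite none of the 43 genes was changed 2-fold in either direction, where 0.718% of all genes had risen and 2.93% had fallen by this measure. In RC4, 26 of 39 genes fell at least 2-fold and none rose, compared with 6.38% of 10081 genes that fell and 6.38% that rose. The median gene of the set was at 43.2% of its NT level. In RC8, 4 of 41 genes were still at least 2-fold below NT, with 3.59% of all genes below and 2.95% above. Summed over the 38 genes of all 3 tables, mitosis transcripts were at 4617, 4845, 1689 and 3762 RPM in NT, AS, RC4 and RC8. The median gene of all genes had 0.30 less in RC4 than in NT on the log2 scale of RPM, and −0.04 and 0.01 were its values in AS and RC8. With a limit of 1.5-fold, 3 of 43 mitosis genes were lower in AS and none higher, compared with 10.2% and 2.07% of all genes. In RC4, 36 of 39 were lower by this limit and 1 higher, compared with 17.4% and 15%, and in RC8, 17 of 41 were lower and none higher, compared with 12.1% and 11.1%. Between AS and RC4, 34 of 39 were lower and 1 higher (17% and 18% of all genes), and between RC4 and RC8, 23 of 38 were higher and 1 lower (18.5% and 14.2%). A change given below is relative to the median gene, and a level is in RPM. The 3 comparisons share the NT library.

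**Figure D1:**
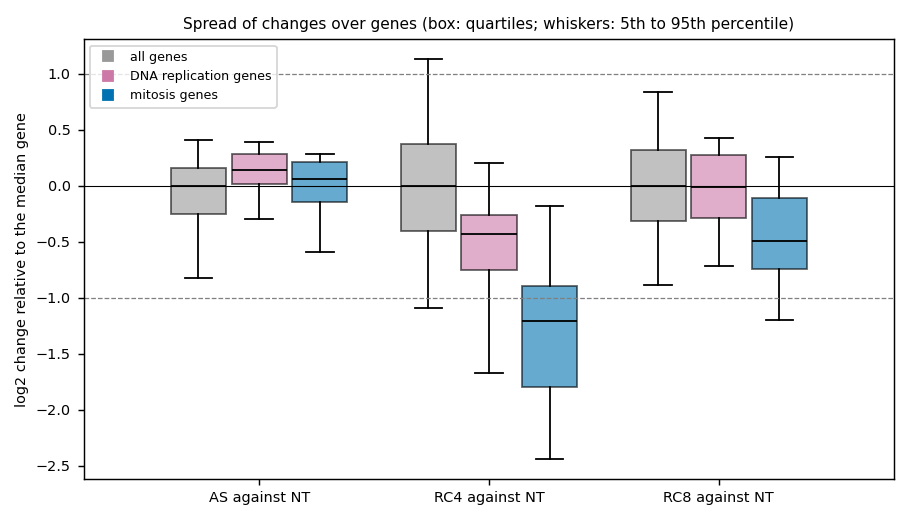
Log2 change against NT relative to the median gene (vertical axis) for all genes (grey), 26 DNA replication genes (pink) and the listed mitosis genes (blue) in AS, RC4 and RC8. Boxes are quartiles with the median, whiskers run from the 5th to the 95th percentile, and dashed lines mark 2-fold. The mitosis box lies near 0 in AS, between −1.80 and −0.90 in RC4 and between −0.75 and −0.11 in RC8.

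DNA replication genes, from a list of helicase, origin and S phase cyclin genes, were set beside the mitosis genes, since both are used by cycling cells. Their median was −0.44 in RC4, with 4 of 26 at least 2-fold lower, compared with 6.38% of all genes. In RC8 it was −0.01 with none lower, compared with 3.59% of all genes. The largest falls in RC4 were of the cyclin E genes, which drive entry into S phase. Ccne1 was at 85.2 RPM in NT and 13.0 in RC4 (log2 change −2.42), and Ccne2 was at 11 and 2.75 RPM (−1.70). The replication list summed to 2807, 2887, 1852 and 2705 RPM in NT, AS, RC4 and RC8. The 4 h library was thus the lowest for both lists.

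Cdk1 and the cyclins that activate it had their lowest levels in RC4, and Ccnf did not. Ccnb1, the cyclin B1 gene, was at 126, 148, 28.3 and 122 RPM in NT, AS, RC4 and RC8. Its change was −1.85 in RC4 (−1.98 to −1.73), or 3.61-fold, and −0.05 in RC8 with an interval that holds 0. Ccna2, the cyclin A2 gene, was at 133, 149, 28.2 and 115 RPM in the same order, a 3.83-fold fall in RC4 (log2 −1.94, −2.06 to −1.82). The RC4 levels of these cyclins stood below all 3 other libraries. Cdk1, the kinase they bind, was at 659, 814, 185 and 628 RPM, and its fall in RC4 was 2.90-fold (−1.53, −1.58 to −1.49). In AS its change of 0.35 (0.32 to 0.38) was the highest of all 43 genes. Cks2, which encodes a small Cdk-binding subunit, was at 23.8, 22.8, 11 and 19.7 RPM, with −0.81 in RC4, and Ccnb2 was at 10.2, 9.89 and 5.33 RPM in NT, AS and RC4, with −0.63 in RC4. Ccnf, the gene of an F-box protein that carries a cyclin domain, was at 28.6, 32.4, 45.7 and 36.4 RPM. It had the highest change of the set in RC4, 0.98 (0.84 to 1.12), just inside the 2-fold limit, and the highest in RC8, 0.35 (0.20 to 0.50). Both PASs of Ccnf in the RC4 table were also listed for the microRNA gene Mir5134, with 641 NT and 1044 RC4 reads there compared with 643 and 1046 for Ccnf, so that the reads of these genes cannot be told apart. The PAS of the 3′-most exon of Cks2 was shared with Gm22806 in the same way.

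The phosphatases that activate Cdk1 and the ubiquitin factors of anaphase were also lowest in RC4 where they were listed for it. Cdc25b was at 98.2, 101, 24.6 and 86.5 RPM in NT, AS, RC4 and RC8, with a 3.24-fold fall in RC4 (−1.69, −1.83 to −1.56). Cdc25c was at 8.37 RPM in NT, 9.09 in AS and 4.04 in RC8, where it was 2.08-fold lower (−1.05, −1.41 to −0.70), and it was not listed for RC4. Its RC8 level rests on few reads and its interval crosses the 2-fold limit. Cdc20, the activator of the anaphase-promoting complex, was at 137, 161, 44.7 and 138 RPM. It fell 2.5-fold in RC4 (−1.32, −1.42 to −1.22) and its change in RC8 was 0.00 (−0.07 to 0.07). Cdca3, whose product promotes the destruction of the Wee1 kinase, was at 88.0, 99.3, 38.6 and 47.7 RPM, with −0.89 in RC4 and −0.89 in RC8. Cdc20 was thus back at its NT level at 8 h while Cdca3 was not.

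**Figure D2:**
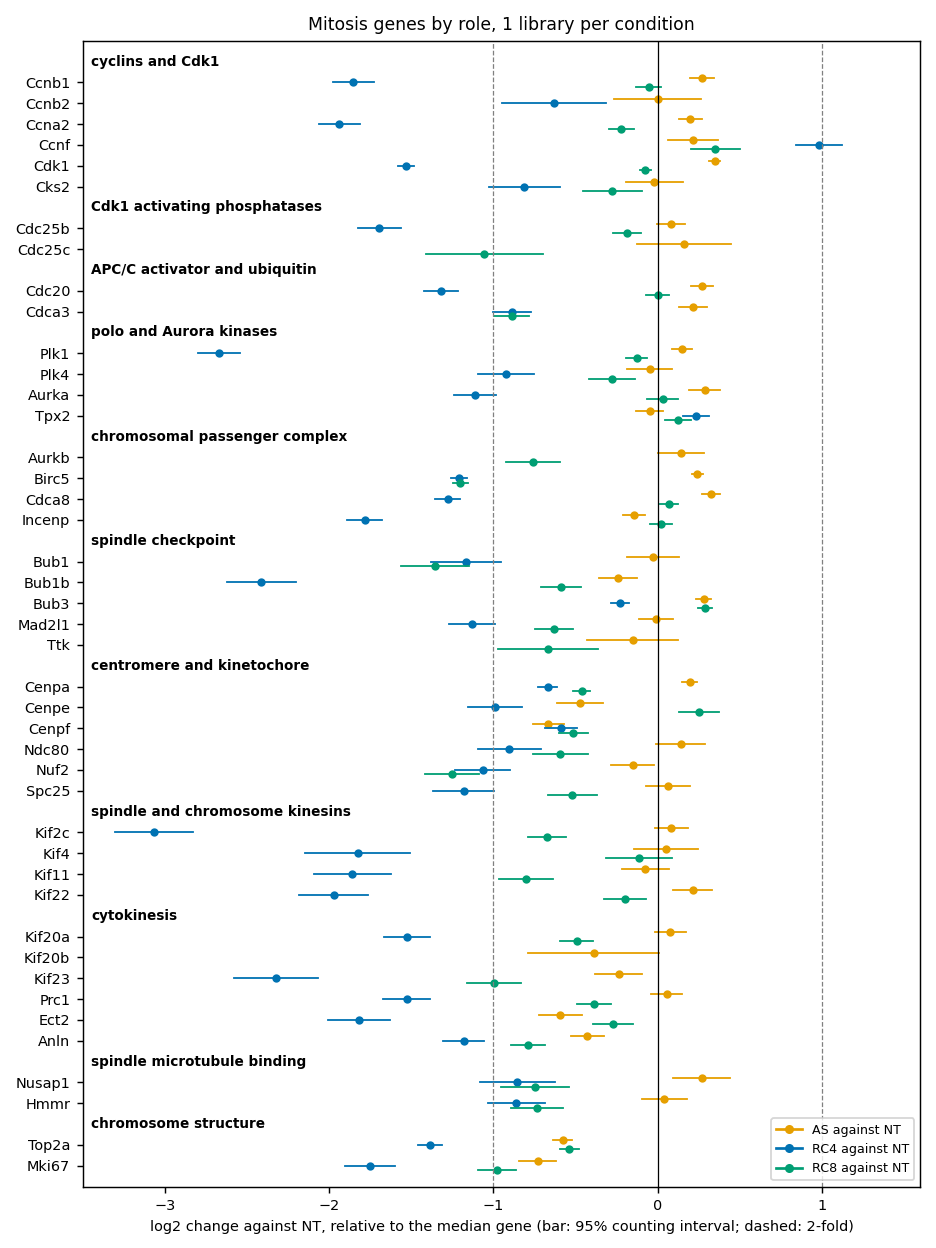
Log2 change against NT relative to the median gene (horizontal axis) for each of the 43 genes, grouped by role, in AS (orange), RC4 (blue) and RC8 (green). Bars are 95% counting intervals and dashed lines mark 2-fold. Blue points lie left of −1 for 26 genes and right of 0 for Ccnf and Tpx2 (Tpx2 is at −0.07 on the scale of RPM), and a missing point is a gene not listed in that table.

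Among the polo and Aurora kinases, Plk1 had the largest fall. Plk1, which drives spindle assembly and mitotic entry, was at 184, 198, 23.5 and 169 RPM in NT, AS, RC4 and RC8. Its fall in RC4 was 6.38-fold (−2.67, −2.80 to −2.54), the second largest of the set, and it rose by 2.59 on the log2 scale between RC4 and RC8, the largest rise between those libraries. Aurka, the kinase of spindle poles, was at 77.7, 92.1, 29.2 and 79.6 RPM, with a 2.16-fold fall in RC4 (−1.11, −1.24 to −0.98) and 0.03 in RC8. In AS it had the third highest change of the set, 0.29 (0.19 to 0.38). Plk4, which starts centriole duplication, was at 39.6, 37.3, 16.9 and 32.8 RPM, with −0.93 in RC4. Tpx2, whose product activates Aurora A on the spindle, was at 115, 108, 109 and 125 RPM, and its changes were 0.23 in RC4 (0.15 to 0.31) and 0.12 in RC8. On the scale of RPM its RC4 change was −0.07, so that its direction there depends on the scaling.

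The chromosomal passenger complex, in which Aurora B acts with Incenp, survivin (Birc5) and borealin (Cdca8), corrects wrong attachments of chromosomes. All 3 members listed for RC4 fell there. Incenp was at 163, 143, 38.3 and 166 RPM in NT, AS, RC4 and RC8, with a 3.45-fold fall in RC4 (−1.78, −1.89 to −1.68). Cdca8 was at 230, 280, 76.9 and 242 RPM, with a 2.43-fold fall (−1.28, −1.36 to −1.20) after 0.32 in AS (0.27 to 0.38), the second highest change of the set there. Both were at or above the NT level in RC8. Birc5 was at 563, 647, 198 and 246 RPM, and its changes in RC4 and RC8 were nearly equal, −1.21 (−1.26 to −1.16) and −1.20 (−1.25 to −1.16). Aurkb was at 35.3 RPM in NT, 37.8 in AS and 20.9 in RC8 (−0.76), and was not listed for RC4.

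Of the spindle checkpoint genes, Bub1b, Bub1 and Mad2l1 fell in RC4. Bub1b, which encodes the inhibitor of Cdc20 named BubR1, was at 59.3, 48.8, 9.04 and 39.7 RPM in NT, AS, RC4 and RC8. Its 5.33-fold fall (−2.41, −2.63 to −2.20) was the third largest in RC4. Bub1, a kinase of the kinetochore, was at 28.8, 27.4, 10.4 and 11.2 RPM, with −1.17 in RC4 (−1.38 to −0.95) and −1.36 in RC8 (−1.56 to −1.15), the largest fall of the set in RC8. Mad2l1, whose product binds Cdc20, was at 65.6, 63.3, 24.3 and 42.5 RPM, with a 2.19-fold fall in RC4 (−1.13, −1.27 to −0.99). Bub3, a subunit shared by these complexes, was at 310, 366, 215 and 380 RPM. Its change in RC4, −0.23 (−0.28 to −0.18), was the third highest of the set, and its change in RC8, 0.29 (0.24 to 0.33), was the second highest. Ttk, the kinase also called Mps1, was at 9.83 RPM in NT, 8.60 in AS and 6.22 in RC8, with −0.67 in RC8, and was not listed for RC4.

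Centromere and kinetochore genes lay nearer the 2-fold limit, with 2 of 6 past it in RC4. Spc25, a subunit of the Ndc80 complex that holds microtubules, was at 38.3, 38.9, 13.7 and 26.8 RPM in NT, AS, RC4 and RC8, with −1.18 in RC4 (−1.37 to −0.995). Nuf2, of the same complex, was at 44.5, 38.9, 17.3 and 18.7 RPM, with −1.07 in RC4 (−1.23 to −0.90) and −1.25 in RC8 (−1.42 to −1.09), the second largest fall of the set in RC8. Ndc80 itself was at 31.9, 34.1, 13.8 and 21.2 RPM, with −0.90 in RC4. These 3 genes of the complex lay below NT in RC8, with changes of −0.52 to −1.25. Cenpe, a kinetochore motor, was at 44.2, 30.9, 18.1 and 52.8 RPM, with −0.99 in RC4, just short of 2-fold, and 0.25 (0.13 to 0.37) in RC8, the third highest of the set. Cenpa, the centromeric histone H3 variant, was at 321, 357, 164 and 234 RPM, with −0.67 in RC4. Cenpf was at 104, 63.5, 56.0 and 72.8 RPM, and its changes were −0.67 in AS (−0.76 to −0.57), −0.59 in RC4 and −0.51 in RC8. Its level was thus below NT in all 3 treated libraries and lowest in RC4, while its change relative to the median gene was largest in AS.

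Every spindle and chromosome kinesin listed fell in RC4, and Kif2c, a motor that shortens microtubules at centromeres, had the largest fall of the set. It was at 69.9, 72, 6.77 and 44.0 RPM in NT, AS, RC4 and RC8, or 8.39-fold lower in RC4 (−3.07, −3.31 to −2.83). Kif22, which binds chromosome arms, was at 46.5, 52.4, 9.61 and 40.7 RPM, with −1.97 in RC4 (−2.18 to −1.76). Kif11, the motor that separates spindle poles, was at 35.2, 32.4, 7.86 and 20.2 RPM, with −1.86 in RC4 (−2.09 to −1.63) and −0.80 in RC8. Kif4, a chromosome-bound kinesin, was at 18.3, 18.4, 4.19 and 17.0 RPM, with −1.83 in RC4 (−2.15 to −1.51) and an interval in RC8 that holds 0. All 4 rose at least 2-fold between RC4 and RC8, when 7.03% of all genes did.

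All 5 cytokinesis genes listed for RC4 fell there. Kif23, a motor of the central spindle, was at 37.9, 31.3, 6.16 and 19.2 RPM in NT, AS, RC4 and RC8. It fell in RC4 by 2.32 on the log2 scale (−2.58 to −2.07), and in RC8 it was 1.99-fold lower than in NT, just inside the 2-fold limit. Ect2, which activates RhoA at the cleavage furrow, was at 51.8, 33.4, 11.9 and 43.1 RPM, with −0.59 in AS (−0.72 to −0.46) and −1.82 in RC4 (−2.01 to −1.63). Its change in AS was the third lowest of the set. Kif20a was at 81.1, 83.1, 22.8 and 57.8 RPM, with −1.53 in RC4 (−1.67 to −1.39), and Prc1, which bundles the microtubules of the central spindle, was at 77.6, 78.4, 21.8 and 59.6 RPM, with −1.53 as well (−1.67 to −1.39). Anln, the gene of the furrow protein anillin, was at 86.9, 62.8, 31.1 and 50.5 RPM, with −1.18 in RC4 (−1.31 to −1.06). Kif20b was at 5.22 RPM in NT and 3.88 in AS and was listed in neither recovery library.

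Top2a and Mki67, whose products untangle chromosomes and coat their surface, were lower in every treated library than in NT. Top2a was at 263, 172, 82.6 and 182 RPM in NT, AS, RC4 and RC8, with −0.58 in AS (−0.64 to −0.52) and −1.39 in RC4 (−1.46 to −1.31). Mki67, the gene of the proliferation marker Ki-67, was at 75.7, 44.4, 18.3 and 38.6 RPM, with −0.73 in AS (−0.84 to −0.62), the lowest change of the set there, −1.75 in RC4 (−1.91 to −1.60) and −0.98 in RC8 (−1.09 to −0.86). Of the spindle proteins that bind microtubules, Nusap1 was at 21.7, 25.4, 9.61 and 12.8 RPM and Hmmr at 37.5, 37.5, 16.7 and 22.5. Their changes were −0.85 and −0.86 in RC4, under 2-fold, and −0.75 and −0.74 in RC8.

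**Figure D3:**
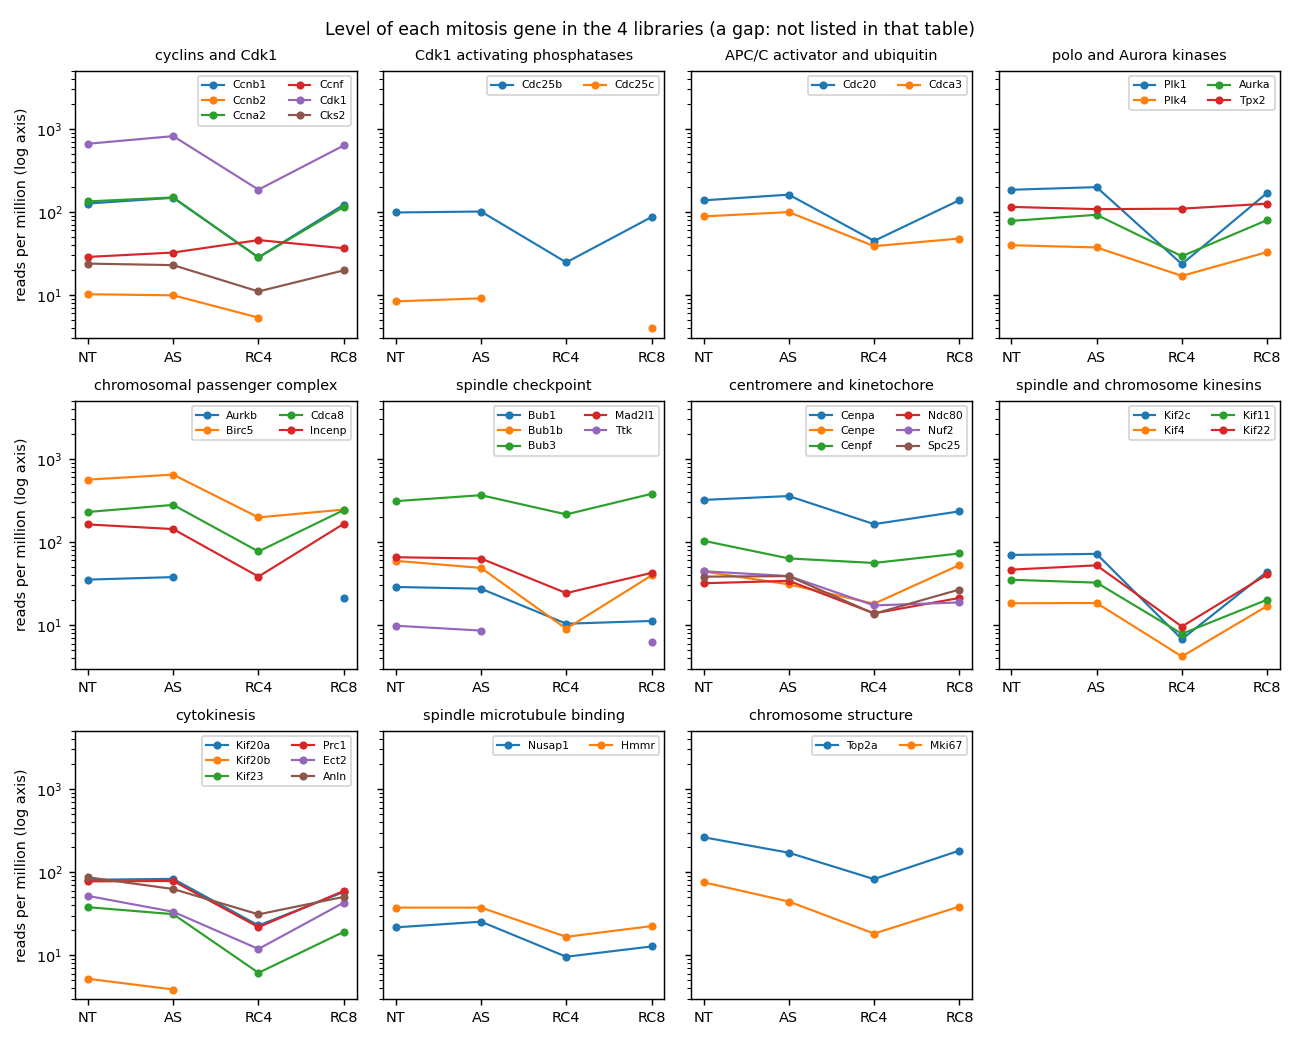
Level of each mitosis gene in RPM (vertical log axis) in NT, AS, RC4 and RC8 (horizontal axis), with a panel for each role and a line for each gene, 1 library per condition. Most lines are lowest in RC4, those of Ccnf and Tpx2 are not, and those of Birc5, Bub1 and Nuf2 stay low in RC8.

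The return between 4 h and 8 h of recovery was uneven. Relative to the median gene, 34 of the 38 genes listed in both recovery libraries were higher in RC8 than in RC4, with a median of 0.98 (0.55 to 1.38), and 19 rose at least 2-fold while none fell. In all genes 7.03% rose and 3.96% fell between these libraries. The 4 genes that were not higher were Ccnf, Tpx2, Bub1 and Nuf2, and on the scale of RPM all but Ccnf were higher in RC8, 37 of 38. Of the 26 genes that fell in RC4, 23 were within 2-fold of NT in RC8, and Birc5, Bub1 and Nuf2 were not. By the median of each role, Plk1, Plk4, Aurka and Tpx2 were closest to NT in RC8 (−0.05 over 4 genes). The Cdk1 and cyclin genes followed (−0.07 over the 5 listed), and the 2 genes of chromosome structure were the farthest, with a median of −0.76. Aurkb, counted with the chromosomal passenger complex, was also at −0.76 in RC8. By counting intervals 31 genes of 41 lay below their NT level in RC8, 5 above it and 5 held 0. The share of all genes by intervals was not computed. The quartiles of the RC8 change were −0.75 and −0.11 for the mitosis genes and −0.31 and 0.31 for all genes. Against AS, 26 of the 39 genes fell in RC4 and none rose, when 6.28% of all genes fell and 9.27% rose.

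At the end of arsenite the changes were small but differed among genes by more than counting error. The interval lay above 0 for 15 genes, below 0 for 10 and held 0 for 18. The share of all genes by this measure was not computed, so these counts were not read as particular to the set. The quartiles of the change were −0.15 and 0.21 for the mitosis genes and −0.25 and 0.16 for all genes. The 10 genes below 0 spanned 26.6 to 61.0 kb of the genome, with a median of 38.5 kb, and the 15 above 0 spanned 4.16 to 32.9 kb, with a median of 10.4 kb. Mki67, Cenpf and Ect2 were lowest, and Cdk1, Cdca8 and Aurka were highest. In the GENCODE vM1 annotation (NCBIM37, the mm9 assembly), Cenpf spans 47.5 kb and Ect2 56.7 kb, while Cdk1 spans 16.3 kb and Aurka 14.3 kb. Mki67 spans 26.6 kb, and its longest annotated transcript, of 10.1 kb, is the second longest of the set. Across the 43 genes, Spearman's rho between gene span and the change in AS was −0.63, and with transcript length it was −0.58. Over the 9311 genes of the AS table with a length, these were −0.38 and −0.48. In RC4 they were −0.01 and −0.12 across 39 mitosis genes. These correlations are across genes of a single pair of libraries that share depth and 3′ end priming, and the genes are not independent replicates. Span and transcript length went together in the set (rho 0.76), and the measures were chosen after the changes had been seen.

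**Figure D4:**
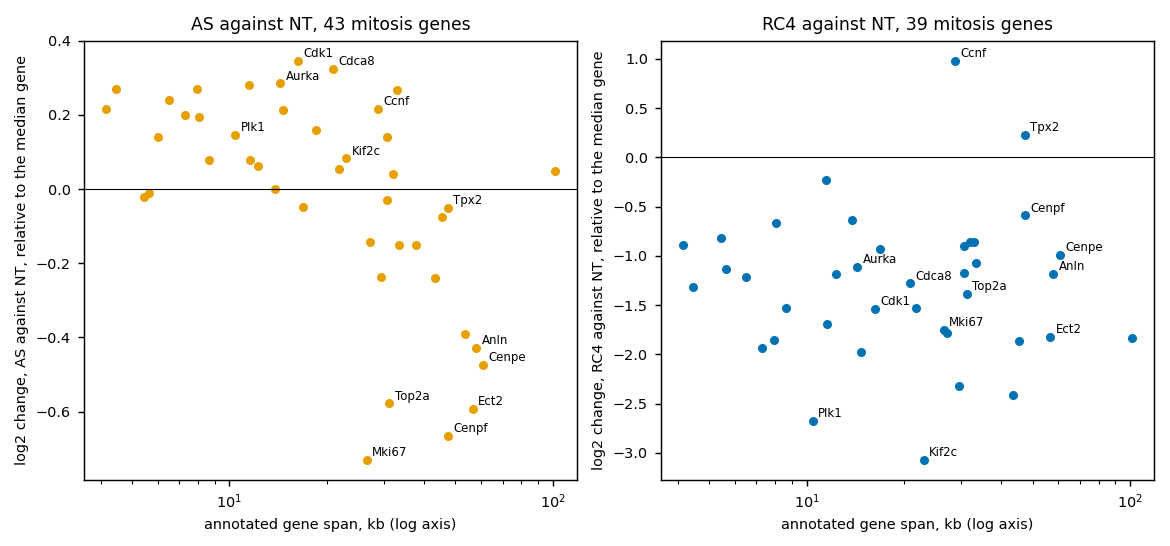
Change against NT relative to the median gene (vertical axis, log2) by annotated gene span in kb (horizontal log axis), in AS for 43 mitosis genes (left) and in RC4 for 39 (right), each point a gene. In AS the lowest points are genes that span 26.6 kb or more (rho −0.63), and in RC4 the points show no slope (rho −0.01).

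A gene with several PASs can end its transcripts in different 3′ untranslated regions, or in an intron or internal exon and so lose the end of the coding region. Of the mitosis genes, 46.5% had 1 listed PAS in the AS table, 48.7% in RC4 and 53.7% in RC8, compared with 49.4%, 47.0% and 48.7% of all genes. A shift was counted where the share of a gene's reads at a PAS differed from NT by at least 10 percentage points, in genes with 2 or more PASs. This held for 3 of 23 genes in AS, 8 of 20 in RC4 and 2 of 19 in RC8, compared with 15.2%, 29% and 26.8% of all such genes. With 19 to 23 genes per table, these counts were not read as a difference from all genes. The median of the largest change per gene was 2.68, 7.35 and 4.60 points in AS, RC4 and RC8, compared with 4.2, 6.2 and 6 over all genes.

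The sites below carry the shifts described next. Each is the last 30 bases up to the PAS on the mm9 assembly, read 5′ to 3′ on the strand of the transcript, with the poly(A) signal AATAAA or ATTAAA in capitals where it lies within these bases.
Nuf2 intronic PAS (chr1:171440248-171440277, minus strand): aaaaactaaaaatacaatgtgagctatgaa
Nuf2 3′-most exon PAS (chr1:171428442-171428471, minus strand): ataaatagatactgaactctgtgagtttta
Tpx2 first intronic PAS (chr2:152689543-152689572, plus strand): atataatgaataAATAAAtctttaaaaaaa
Tpx2 next intronic PAS (chr2:152689733-152689762, plus strand): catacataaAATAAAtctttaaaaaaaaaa
Cenpf proximal PAS (chr1:191465860-191465889, minus strand): tggtgatatATTAAAgtatgtccttgtaaa
Cenpf distal PAS (chr1:191464485-191464514, minus strand): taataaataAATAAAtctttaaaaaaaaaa
Ccnb1 intronic PAS (chr13:101550144-101550173, minus strand): tacttatacataataataAATAAAtctttt
Plk4 middle PAS (chr3:40620674-40620703, plus strand): gaatgtgtaaataatgtattataagcaata
Plk4 distal PAS (chr3:40620776-40620805, plus strand): aaAATAAAcacagtggtaagttttccttaa
Within 40 bases before the PAS, either signal was found at 48 of 85 PASs of mitosis genes (56.5%, 45.9% to 66.5%) and at 52.0% of all 21906 entries. A run rich in A shortly before or after the cleavage position, where oligo(dT) can prime inside a transcript, was present at 8 of the 85 (9.41%). It was present at 12.1% of all. Among the sites printed, the distal PAS of Cenpf and the next intronic PAS of Tpx2 have such a run. It was also present at sites not printed, the distal PAS of Kif2c and the proximal PASs of Kif23 and Ttk. The shifts of these genes, given below, involve these sites, and priming inside the transcript was not tested. The first intronic PAS of Tpx2 ends in a shorter run of A that was not counted.

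Nuf2 had the largest shift in RC4, toward its intronic PAS. This PAS held 35.3% of Nuf2 reads in NT (32.4% to 38.3%), 37.1% in AS, 68.8% in RC4 (64.1% to 73.2%) and 34.4% in RC8. The reads at the 3′-most exon, which carries the end of the coding region, were then 28.9 RPM in NT and 5.38 in RC4, a change of −2.09 relative to the median gene in place of −1.07 for all reads. Tpx2 moved the same way. Its intronic PASs held 14.2% and 3.40% of reads in NT, 30.6% and 13.2% in RC4, and in RC8 the single intronic PAS listed held 23.6%, compared with 15.7% in NT in the same table. Counted at the 3′-most exon alone, Tpx2 was at 94.5 RPM in NT and 61.3 in RC4, and its change turned from 0.23 to −0.29. Ccnb1 had 0.78% of reads at its intronic PAS in NT (0.51% to 1.17%) and 8.63% in RC4 (6.7% to 11%), and this PAS was not listed in the AS and RC8 tables. The largest change of Ccnb1 in RC4 was at its distal PAS, from 92.6% in NT to 79.5%. The proximal PAS of its 3′-most exon rose from 6.62% to 11.9%, so that the shift was not only intronic. In Hmmr, a PAS in an internal coding exon held 20.8% in NT, 31.4% in RC4 (27.0% to 36.2%) and 15.2% in RC8. With reads at the 3′-most exon alone, 27 mitosis genes fell in RC4 in place of 26, the addition being Hmmr (−1.04), and Ccnf, with 1.01 in place of 0.98, rose at least 2-fold. That count was chosen after the values were seen.

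**Figure D5:**
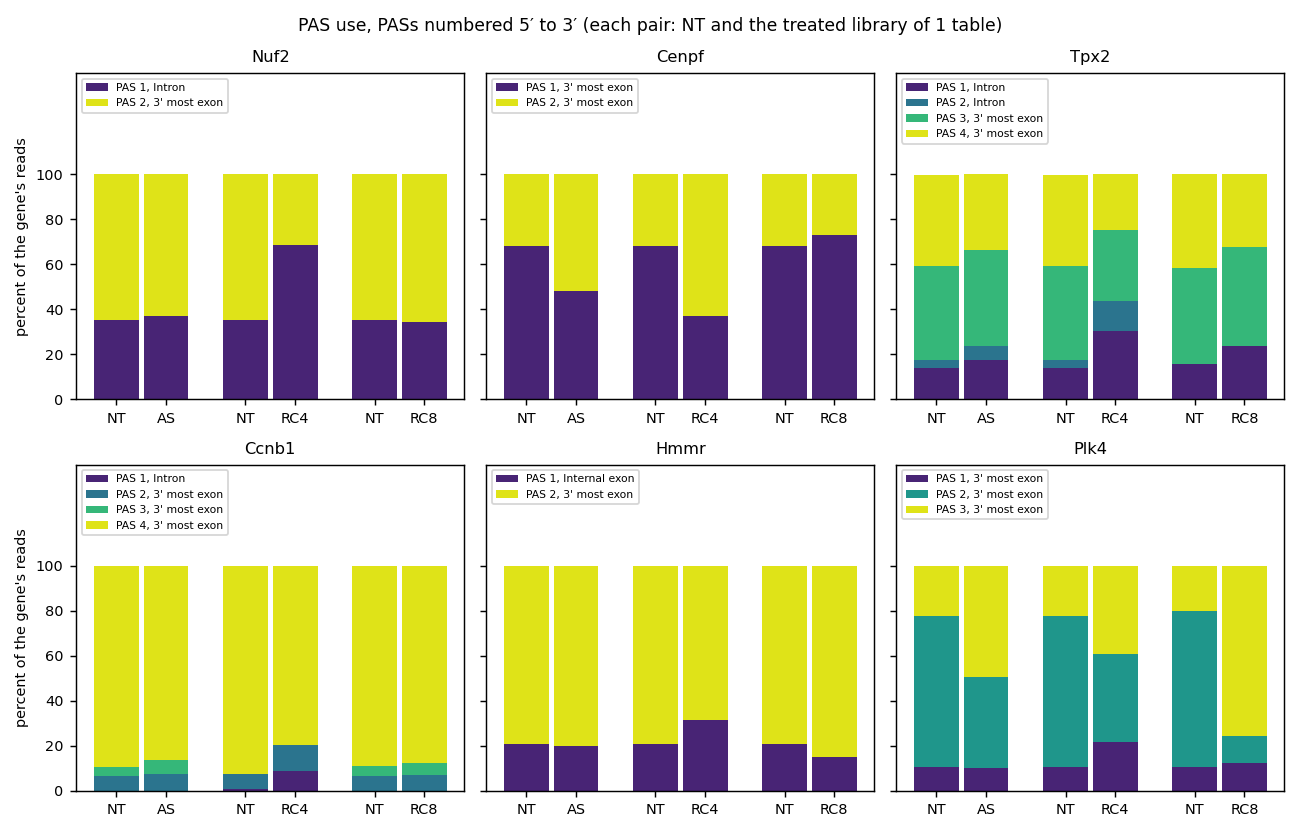
Percent of a gene's reads (vertical axis) at each PAS of Nuf2, Cenpf, Tpx2, Ccnb1, Hmmr and Plk4, with PASs numbered and coloured from 5′ to 3′. Each pair of bars is NT and the treated library of the same table, and a PAS missing from a table is drawn as 0. The dark intronic share of Nuf2 grows from 35.3% to 68.8% in RC4 and is 34.4% in RC8.

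Within the 3′ untranslated region, Cenpf had the largest shift over a distance of more than 1 kb. Its distal PAS, 1375 bases beyond the proximal, held 31.7% of reads in NT (29.8% to 33.6%), 51.9% in AS (49.3% to 54.5%) and 63.1% after 4 h of recovery (60.4% to 65.7%). After 8 h it held 27.1% (25% to 29.3%). The distal share was thus higher than in NT at the end of arsenite and at 4 h and slightly lower at 8 h. In AS and RC8, Plk4 moved mainly between its middle and distal PASs, only 102 bases apart. The distal PAS held 22.4% of reads in NT, 49.3% in AS and 39.1% in RC4. In RC8 it held 75.7%, compared with 20.1% in NT in that table. In RC4 the proximal PAS of Plk4 gained as well, from 10.6% in NT to 21.6%. When PASs closer than 300 bases were merged, the largest change of Plk4 was 0.60, 11.1 and 1.80 points in AS, RC4 and RC8. The shifts of Kif2c (18.6 points) and Kif23 (14.5 points) in RC4 were between PASs 106 and 167 bases apart and rest on 155 and 141 reads in RC4. Ttk in AS (11.4 points) and Kif11 in RC8 (10.2 points) lay just past the limit, with 193 and 465 reads.

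Lists of further mitotic genes were described in the same way, and their counts stand beside the 6.38% of all genes that fell and the 6.38% that rose in RC4. In RC4, 13 of 25 listed genes of other spindle and cytokinesis factors fell at least 2-fold, with a median of −1.07, and 7 of 18 condensin and cohesin genes fell, with a median of −0.86. The largest falls were of Cdca5, the cohesin regulator sororin, from 27.3 RPM in NT to 2.36 in RC4 (−3.23), and of the spindle gene Ckap2l, from 79.4 to 11.6 RPM (−2.44), followed in its list by Pimreg (−2.23). Of other kinetochore genes 6 of 25 fell, led by Spdl1 (−1.87) and Cenpl (−1.66), and Zwint rose from 328 to 535 RPM (1.01). Of the anaphase-promoting complex and its regulators 3 of 15 fell, and its median was −0.36. These were the inhibitor gene Fbxo5, from 134 to 17.3 RPM (−2.65), the activator gene Fzr1, from 46.9 to 8.95 (−2.08), and the subunit gene Cdc23 (−1.12). In RC8 the numbers that fell were 2 of 30, 3 of 19, 5 of 27 and 0 of 15, in the order of other spindle and cytokinesis factors, condensin and cohesin, other kinetochore genes and the anaphase-promoting complex, where 3.59% of all genes fell. The lowest were Ncapg2 (−1.96) and Cenpp (−1.85). Ncapg2, of condensin II, and Aspm, of the spindle pole, were the 2 genes of these 4 lists that fell in AS, from 29.2 to 10.7 RPM (−1.41) and from 19.5 to 9.40 (−1.01).

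Of other mitotic kinases and cell cycle regulators, 4 of 16 rose at least 2-fold in RC4 and 2 fell, compared with 6.38% of all genes in each direction. Those that rose were the stress-inducible polo-like kinase genes Plk2, at 124 RPM in NT and 316 in RC4 (1.67), and Plk3, at 22.4 and 66.4 (1.87), with the Cdk inhibitor gene Cdkn1a (1.66) and Gadd45a, at 9.43 and 31.9 RPM (2.06). Foxm1, a transcription factor of G2 and M phase genes, was at 94.0 RPM in NT and 37.3 in RC4 (−1.03), and Mastl, the kinase that restrains phosphatase PP2A in mitosis, was at 26.0 and 9.96 (−1.08). In RC8, 2 of the 19 listed genes of this group were at least 2-fold up and 1 was down, compared with 2.95% and 3.59% of all genes. Plk2 and Plk3 were those still up, at 1.26 and 1.24. The polo-like kinase genes thus lay on either side of NT in RC4, with Plk1 6.38-fold lower and Plk2 and Plk3 at least 2-fold higher.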

How the data were processed

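Reads per gene and PAS use of NIH3T3 cells were measured with QuantSeq FWD, 1 library for each of NT, AS, RC4 and RC8. Per the labels, the authors mapped reads to mm9 with STAR 2.5.2a. Their methods name bbmap for trimming and MAAPER with PolyA_DB v3, genes of at least 50 reads and a PAS threshold of 5%. The authors deposited unnormalized read counts of genes, in 2 columns per library, and PAS use was deposited as a fraction of a gene's reads. The columns differed by counting noise (chi-square per degree of freedom 0.974 to 1.03) and were added. The deposited P values and the RLD and RED scores hold the authors' own comparisons and were not used. QuantSeq REV samples were not analysed here.

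Counts were scaled to RPM of listed genes and then to the median gene of each comparison (Python 3.11.15, pandas 2.3.3). A change of 2-fold was called. NT levels are from the AS table, and folds use the NT counts of their own table. Counting intervals were 95% Wald intervals of log ratios and Wilson intervals of fractions. The scoring was tested on simulated data. Alternatives used total reads, edgeR 4.0.16 TMM factors, DESeq2 1.42.0 size factors, each count column alone, at least 200 reads, genes of all 3 tables and other thresholds. Members and lists were chosen with earlier results of these data known. All 43 genes are accounted for, with full values for those past 2-fold in a comparison with NT and the 3 largest rises and falls in each.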

Additional observations from a re-analysis of the deposited data

How the results depend on the processing

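The median change of the mitosis genes kept its direction under total reads and TMM scaling, each count column alone, at least 200 reads and genes of all 3 tables. It ran from 0.01 to 0.09 in AS, from −1.51 (total reads) to −1.22 (TMM) in RC4 and from −0.49 to −0.42 in RC8. For a pair of libraries, DESeq2 size factors gave the same scale as the median gene. Their values repeat the main result by construction and are no separate check, though they are counted among the 139 alternative values. Of these 139, 125 were within 1.5 times the reported count or within the interval of the median over genes. With a limit of 1.5-fold, 3 genes were lower in AS and 17 in RC8, 1 was higher in RC4 than in NT, 1 was higher in RC4 than in AS and 1 was lower in RC8 than in RC4. With the second count column alone, or with reads at the 3′-most exon alone (chosen after seeing the data), 1 gene rose 2-fold in RC4, where none did with all reads. Shifts of 20 points were found in 3 of 20 genes in RC4 and 1 of 19 in RC8. Shifts of 5 points were found in 6 of 23 genes in AS and 9 of 19 in RC8. Merging PASs closer than 300 bases left shifts in 1 of 17 genes in AS and 1 of 14 in RC8. PASs of the 3′-most exon alone gave 4 of 15 in RC4. The share of all genes was not computed for these settings, so these counts were not read as a result about the mitosis genes. The fewer PASs tested lower these counts by construction. No paired analysis was possible because each condition had 1 library. Genes near 50 reads have wide intervals, and variation between cultures was not measured.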

Other observations

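Genes outside the set were grouped by the same promoter motifs, a grouping chosen after the changes had been seen. A gene with several promoters was counted as having both motifs even where CCAAT and TTTGAA lay in different promoters. In RC4, 490 other genes with both had a median change of −0.13, and 8.78% of them fell at least 2-fold. For 3632 other genes with neither motif, the median was −0.01 and 5.59% fell. Of 22 mitosis genes with both motifs 15 fell, with a median of −1.35, and of 5 with neither 3 fell, with a median of −1.07. In RC8 the medians of these mitosis genes were −0.43 and −0.75.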
